A study of Mus musculus with 2 samples.

Results

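A set of 10 homeodomain, forkhead and bHLH-PAS transcription factor genes that pattern the hypothalamus were followed in bulk total RNA of the embryonic mouse forebrain. They are Sim1, Otp, Six3, Six6, Rax, Nkx2-4, Hmx2, Hmx3, Foxb1 and Bsx, from a list chosen with earlier results of these data known. All 10 were found by Ensembl identifier among the 43346 genes of the deposited tables. The study holds 1 group of 2 biological replicates. Each replicate is a pool of forebrains from healthy B6NCrl embryos of both sexes at embryonic day 16.5, and the second pool was made from 41 embryos. No genotype, treatment or second age is compared, and the pooling means that values of single embryos are not seen. Libraries of RNA longer than 200 nt were started from 10 ng and carried ERCC spike-ins, which are synthetic RNAs added for scaling. The tables summed to 31211128 and 26957198 expected counts on genes. Because there is 1 library on each side, differences between the pools have no replicate check and no p-value. The labels give both pools the same donor identifier but separate biosamples, and differences between embryos, dissections and library preparations cannot be told apart.

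The hypothalamus forms from the ventral part of the rostral neural tube, next to the eye field and below the telencephalon, and a forebrain sample may hold more or less of it. Its territories are named by transcription factors. Sim1 and Otp are required for the neuroendocrine neurons of the paraventricular and supraoptic nuclei, Six3, Six6 and Rax mark the ventral anterior primordium and the eye field, Hmx2, Hmx3 and Bsx belong to the arcuate and neighbouring tuberal region, and Foxb1 to the mammillary body. The forebrain label was checked against 10 telencephalic factors. All 10 reached 1 TPM (a transcript level corrected for length and depth) in both libraries, and they summed to 537 and 581 TPM.

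Of the members 9 were low, each with fewer counts in replicate 2, while Six3 was moderate, at 14.6 and 13.3 TPM. Of the 10 members only Six3 reached 1 TPM in both libraries, at 13.9 ± 0.962 TPM (SD, n = 2). Otp followed at 1.34 ± 1.17 TPM, then Sim1 at 0.650 ± 0.693, Bsx at 0.545 ± 0.304, Hmx2 at 0.480 ± 0.424, Foxb1 at 0.45 ± 0.382, Six6 at 0.305 ± 0.318, Hmx3 at 0.285 ± 0.205, Rax at 0.170 ± 0.240 and Nkx2-4 at 0.0500 ± 0.0707 TPM. Six3 and Otp did not overlap, whereas the values of every later pair of neighbours in this order overlapped between the libraries. Within each library Six3 ranked 1 and Otp 2, whereas Sim1 ranked 3 in replicate 1 and 6 in replicate 2, and Bsx 5 and 3. Without Six3, the summed members held 394 counts in replicate 1 and 63 in replicate 2.

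**Figure D1:**
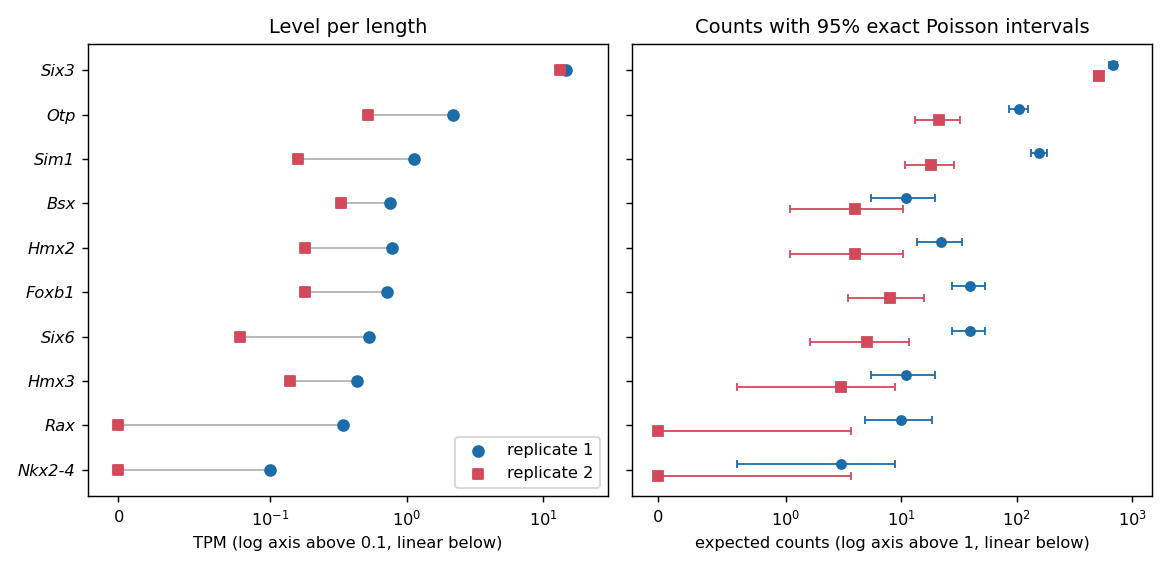
Levels of the 10 members in each pool, as TPM on the left and as estimated counts with 95% exact Poisson intervals on the right (counting error only), both on axes that are logarithmic except near 0. Circles are replicate 1 and squares replicate 2. Six3 has its points together at 14.6 and 13.3 TPM, and the square lies left of the circle in each of the other rows.

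Differences between the pools are given as log2 ratios of replicate 2 minus replicate 1, after scaling by trimmed means (TMM) and with 0.5 counts added to each library. Their 95% Clopper-Pearson intervals cover counting error only, with 1 library on each side. Amplified reads are not independent molecules, so the intervals may be too narrow even for that error. A gene was called when its mean count was at least 10, the ratio at least 2-fold and the interval did not include equality. Of 6 members with enough counts 5 were called lower in replicate 2 and 0 higher. By the same rule 2.95% of 17177 genes were called lower and 1.38% higher, or 506 and 237 genes. With spike-in scaling the balance of all genes turned, to 121 genes (0.704%) called lower and 1066 (6.21%) called higher. Among 14604 protein-coding genes, the class of all members, 1.44% were called lower. All 6 members had a ratio below 0 (Six3 was above 0 under spike-in scaling), beside 50.1% of all genes with that minimum. Spike-in scaling adds 0.55 to every log2 ratio, so that values between -0.55 and 0 change sign under it, and the 5 called members remained called. The median ratio of these 6 members was -2.07, beside -0.0009 over all genes with the same minimum. With spike-in scaling these medians were -1.51 and 0.55. Without a minimum count 6 of 10 members were called lower, with Rax added, beside 2.87% of 24579 genes. In bulk tissue, fewer cells of a type and less RNA per cell cannot be told apart.

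**Figure D2:**
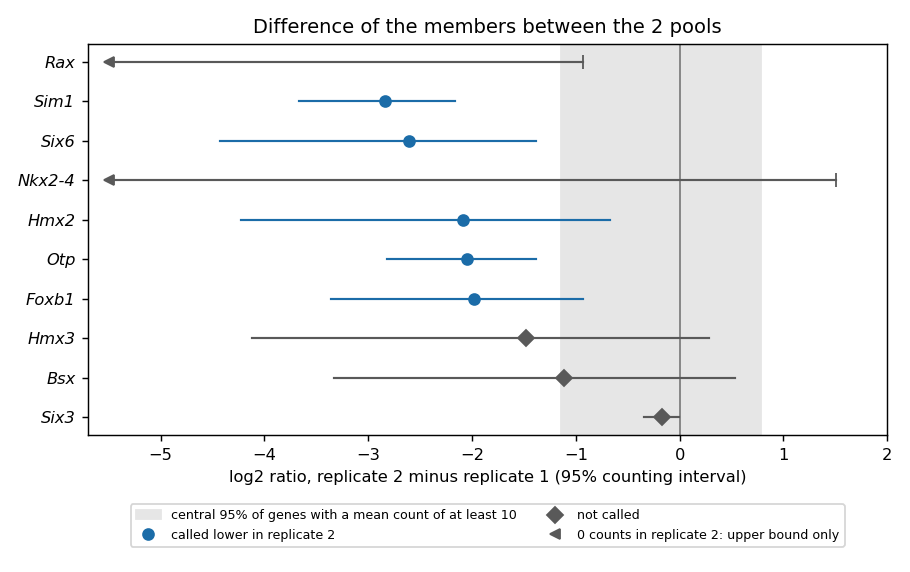
Log2 ratio of each member between the pools (points, x axis) with its 95% counting interval (lines); arrows mark members with 0 counts in replicate 2, for which only an upper bound exists. Blue circles were called lower in replicate 2, and the grey band is the central 95% of genes with a mean count of at least 10, from -1.14 to 0.79. Six3, at -0.17 (0.38 under spike-in scaling), is the member nearest to 0.

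The paraventricular pair had the most reads of the members that were lower. Sim1, a bHLH-PAS factor whose loss in mice removes paraventricular and supraoptic neurons (ENSMUSG00000019913.3, chromosome 10, 50894754 to 50989152, plus strand), had 155 expected counts in replicate 1 and 18 in replicate 2, or 1.14 and 0.160 TPM. The intervals of its counts, 132 to 181 and 10.7 to 28.4, did not overlap. Its level was 7.14-fold lower in replicate 2 (log2 ratio -2.84, interval -3.66 to -2.16). Of the 17177 genes tested, 23 had a ratio as low, Sim1 included. Otp, the homeodomain factor Orthopedia that is needed for the same neuroendocrine lineages (ENSMUSG00000021685.11, chromosome 13, 94875602 to 94885130, plus strand), had 104 and 21 counts, or 2.17 and 0.520 TPM. The intervals of its counts, 85.0 to 126 and 13.0 to 32.1, did not overlap. It was 4.13-fold lower (-2.05, -2.82 to -1.39). The difference between the ratios of Sim1 and Otp was -0.80, with an interval of -1.86 to 0.26 that includes equality, so at this depth the 2 genes could not be told apart in how far they differed.

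To let the start regions of the pair be compared, 300 bases of each are printed 5′ to 3′, from 250 bases before the RefSeq start site to 50 after it (GRCm38.p6). The Sim1 entry is chr10:50895401-50895700 and the Otp entry chr13:94875386-94875685, both on the plus strand. Capitals mark matches to TATAAA or CCAAT on either strand, and none of the marked matches overlap.
Sim1: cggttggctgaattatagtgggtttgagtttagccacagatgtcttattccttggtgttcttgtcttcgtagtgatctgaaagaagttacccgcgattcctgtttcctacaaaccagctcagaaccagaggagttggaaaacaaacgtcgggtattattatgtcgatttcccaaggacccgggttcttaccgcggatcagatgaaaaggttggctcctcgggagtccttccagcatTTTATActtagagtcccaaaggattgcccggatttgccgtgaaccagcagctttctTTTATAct
Otp: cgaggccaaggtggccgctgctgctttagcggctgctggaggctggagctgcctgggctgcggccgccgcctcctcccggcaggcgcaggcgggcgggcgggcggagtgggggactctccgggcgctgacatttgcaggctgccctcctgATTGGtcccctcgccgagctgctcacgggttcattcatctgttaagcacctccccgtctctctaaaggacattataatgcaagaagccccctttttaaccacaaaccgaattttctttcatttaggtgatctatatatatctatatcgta
The Sim1 entry held 2 matches to TATAAA, of which the first began 14 bases before the start site and the other 42 bases after it, both on the minus strand, and 0 to CCAAT. Among all 32851 RefSeq entries of the same length, 13.6% held TATAAA and 37.4% held CCAAT. The Otp entry had 0 matches to TATAAA and 1 to CCAAT, 100 bases before the start site. It also held 3 matches to GGGCGG, the GC box, each overlapping the next, a motif that occurs in 35.7% of entries, whereas Sim1 had 0. GC content was 46.0% for Sim1 and 58.7% for Otp, with a median of 52.7% over all entries. The Sim1 start site is that of the 1 transcript listed for the gene, and the Otp site lies 34 bases from the start of the transcript that held all Otp reads. Such matches describe sequence only.

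The partner and the downstream factor of Sim1 did not pass the call, whereas the peptide genes Crh, Avp and Trh were called lower in replicate 2 (Trh not with spike-in scaling). Arnt2, the dimer partner of Sim1, is transcribed in many neurons and was at 56.3 and 53.5 TPM, with a ratio of -0.09 (-0.14 to -0.04). Pou3f2, a POU factor required downstream of Sim1 for the same neurons and also a gene of cortical neurons, was at 40.0 and 49.5 TPM, with 0.29 (0.23 to 0.35). The ratio of Sim1 was lower than that of Arnt2 by a log2 difference of -2.78 (-3.58 to -2.07), and that of Otp by -1.98 (-2.74 to -1.29). Crh, the releasing hormone of the stress axis, had 88 and 13 counts and a ratio of -2.48 (-3.49 to -1.68). Avp had 176 and 30 counts with -2.30 (-2.93 to -1.75), and Trh 183 and 65 with -1.25 (-1.69 to -0.84). Oxt, the neighbour of Avp, was estimated at 16.5 counts in replicate 1 and 0 in replicate 2. Its mean count was under 10, and the estimates of Avp and Oxt in replicate 1 are not whole, so some of their reads were divided by the authors' model. Of 16 listed hypothalamic peptides and hormones, 15 were matched, 11 had enough counts, 6 were called lower and 0 higher. Their median was -1.25, also with the gene at 0 counts set to its floor. With spike-in scaling 4 were called lower, since Trh (-0.70) and Cartpt (-1.09, -2.60 to 0.08) lost the call, and the median was -0.70.

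Six3 and Six6 are closely related homeobox genes with different outcomes. Six3, which keeps the anterior neural plate free of caudal signals and is later also active in striatal precursors (ENSMUSG00000038805.10, chromosome 17, 85613608 to 85629302, plus strand), had 680 and 513 counts, or 14.6 and 13.3 TPM. Its ratio was -0.17 (-0.34 to -0.0041), or 0.38 with spike-in scaling, and did not pass the call. Six6, a gene of the eye, pituitary and ventral hypothalamus (ENSMUSG00000021099.6, chromosome 12, 72939892 to 72944899, plus strand), had 39 and 5 counts, or 0.530 and 0.0800 TPM. It was 6.10-fold lower in replicate 2 (-2.61, -4.43 to -1.38), and the count intervals of 27.7 to 53.3 and 1.62 to 11.7 did not overlap. The difference between the ratios of Six3 and Six6 was 2.56 with an interval of 1.2 to 4.27. Of the 9 pairs that Six3 forms with other members, 6 had an interval without equality, whereas of the 36 pairs among the other 9 members 0 had. The wide intervals of those 36 pairs mean that unequal differences among the 9 could not be seen at these counts.

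The start regions of this paralogous pair are printed in the same way, chr17:85620584-85620883 for Six3 and chr12:72939632-72939931 for Six6, both on the plus strand and with the same marks.
Six3: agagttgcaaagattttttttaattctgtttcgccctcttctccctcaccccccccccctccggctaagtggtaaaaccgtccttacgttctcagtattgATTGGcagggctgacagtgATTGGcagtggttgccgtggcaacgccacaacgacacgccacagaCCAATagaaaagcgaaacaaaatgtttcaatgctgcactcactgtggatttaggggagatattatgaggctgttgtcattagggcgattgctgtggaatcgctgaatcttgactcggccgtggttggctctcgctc
Six6: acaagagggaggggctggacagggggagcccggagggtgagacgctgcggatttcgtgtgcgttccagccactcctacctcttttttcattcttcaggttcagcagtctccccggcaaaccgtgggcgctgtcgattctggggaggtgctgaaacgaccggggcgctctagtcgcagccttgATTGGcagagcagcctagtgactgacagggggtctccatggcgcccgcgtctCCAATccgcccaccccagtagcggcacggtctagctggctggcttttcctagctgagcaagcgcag
The Six3 entry held 3 matches to CCAAT, starting 150, 131 and 86 bases before the start site, and the Six6 entry 2, starting 68 and 16 bases before it. Both had 0 matches to TATAAA, and they held 14 and 20 CG dinucleotides, with a median of 7 over all entries. The transcript that starts at the Six3 entry, at position 85620834, held 12.0% of the TPM of Six3 in replicate 1 and 10.6% in replicate 2. A transcript that starts 7.2 kb upstream, at position 85613608, held 86.7% and 88.6%, so most Six3 reads were assigned to a start other than the printed one.

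The upstream part of Six3 lies across its antisense neighbour. Six3os1, a noncoding gene on the minus strand (chromosome 17, 85600651 to 85618398), overlaps Six3 by 4791 bases, and the overlap includes the upstream start of Six3. It had 713 and 441 counts, or 12.3 and 9.69 TPM, with a ratio of -0.46 (-0.63 to -0.28). The ratio of Six3 was higher than that of Six3os1 by 0.29 (0.04 to 0.53). Whether counting used strand is not stated, so reads in the overlap cannot be assigned to one gene with certainty and the level of Six3 shares this limit. Of the striatal neuron genes, a second site of Six3, all 10 reached 1 TPM in both libraries, 0 were called (1 higher with spike-in scaling), and their median ratio was -0.05 (0.51 with spike-in scaling), with Drd1 at 10.98 and 10.7 TPM and Adora2a at 8.34 and 8.36 TPM. The part of striatal cells in the level of Six3 was not tested.

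Paralogs that neighbour Six3 and Six6 had ratios above 0. Six4, which acts in sensory placodes and muscle, lies 154709 bases from Six6 on chromosome 12. It had 38 and 46 counts, with a ratio of 0.51 (-0.14 to 1.17). The ratio of Six6 was lower than that of Six4 by -3.21 (-5.05 to -1.69). Six2, which lies 54974 bases from Six3, had 8 and 12 counts and a ratio of 0.79 (-0.59 to 2.32). Over the 15 listed paralogs of the members, 9 had enough counts, 0 were called lower and 1, Alx1, was called higher, with 17 and 39 counts. With spike-in scaling 3 were called higher, Six4 among them.

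Rax and Nkx2-4 were at the edge of detection. Rax, the homeobox gene of the eye field and later of tanycytes, the glia lining the third ventricle (ENSMUSG00000024518.3, chromosome 18, 65928277 to 65939787, minus strand), had 10 counts in replicate 1 and 0 in replicate 2. The floor behind a count of 0 is 3 counts, or 0.121 TPM for Rax in that library. Against this floor the level of Rax was 2.83-fold lower in replicate 2. The floor leaves out the counting error of the 10 reads in replicate 1, and with it the upper end of the interval of the log2 ratio was -0.93. Nkx2-4 (ENSMUSG00000054160.2, chromosome 2, 147083316 to 147085445, minus strand), a close relative of Nkx2-1 of the ventral diencephalon, had 3 and 0 counts. Both libraries were at or under the floor for this gene, 0.0983 and 0.117 TPM, so no fold is given. Nkx2-1 itself, which also marks the medial ganglionic eminence of the telencephalon, was at 6.73 and 3.98 TPM, with a ratio of -0.71 (-1.01 to -0.42) that did not pass the call. Retina markers bear on Rax, Six6 and Six3, since the eye expresses all 3. Of 8 retina markers, 7 had at most 5 counts in either library and summed to 16 and 13 counts. Rlbp1, which radial glia also express, was the exception at 55.8 and 73.3 TPM. The 9 pituitary markers, a second site of Six3 and Six6, summed to 7 and 17 counts, and Gh had 0 in both libraries.

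Of the 3 tuberal factors Hmx2 was called lower in replicate 2, and Hmx3 and Bsx had too few counts to be tested. Hmx2 and Hmx3 are adjacent genes on the plus strand of chromosome 7, separated by 3847 bases, that act together in the vestibular ear and in the hypothalamus, where they are needed for growth hormone-releasing hormone neurons. Hmx2 (ENSMUSG00000050100.9, 131548773 to 131558014) had 22 and 4 counts, or 0.780 and 0.180 TPM, and was 4.25-fold lower in replicate 2 (-2.09, -4.22 to -0.67). The intervals of its counts, 13.8 to 33.3 and 1.09 to 10.2, did not overlap. Hmx3 (ENSMUSG00000040148.5, 131542867 to 131544925) had 11 and 3 counts, or 0.430 and 0.140 TPM. Its ratio was -1.48 with an interval of -4.12 to 0.28, and its mean count of 7 was under the minimum. Both neighbours had fewer counts in replicate 2, and the difference between their ratios, -0.57, had an interval of -3.40 to 2.44. The 6 inner ear markers summed to 38 and 58 counts (0.84, 0.23 to 1.48), of which Tecta, an inner ear matrix protein, gave 22 and 33. Tecta was the 1 marker with enough counts and was called higher under spike-in scaling only, and Otol1 was at 0 in both libraries. Their part in the Hmx2 and Hmx3 counts was not tested. Ghrh itself had 5 and 2 counts. Bsx, a homeobox gene of arcuate neurons that make Npy and Agrp (ENSMUSG00000054360.3, chromosome 9, 40874127 to 40880057, plus strand), had 11 and 4 counts, or 0.760 and 0.330 TPM, with a ratio of -1.12 (-3.33 to 0.53). Agrp had 8 and 5 counts. Npy, which telencephalic interneurons also make, was at 137 and 140 TPM with a ratio of 0.01 (-0.11 to 0.13).

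The reads of Hmx2 were divided between a transcript starting at 131548773, with 11.5 and 4 counts, and one starting at 131554061, with 10.5 and 0 counts. The share of the first in the TPM of Hmx2 was 54.5% in replicate 1 and 100% in replicate 2. With 4 reads in replicate 2 this is not a resolved change of transcript. Of the 10 members 7, all but Six3, Otp and Hmx2, have 1 listed transcript, and the second one of Otp, a processed transcript, had 0 counts in both libraries.

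Foxb1, the forkhead gene of the mammillary body (ENSMUSG00000059246.4, chromosome 9, 69757710 to 69760940, minus strand), had 39 and 8 counts, or 0.720 and 0.180 TPM. It was 3.95-fold lower in replicate 2 (-1.98, -3.36 to -0.93), and the intervals of its counts, 27.7 to 53.3 and 3.45 to 15.8, did not overlap. Of 7 other factors of the mammillary and subthalamic region, 3 had enough counts. Lmx1a, a LIM homeobox gene, was at 1.28 and 1.29 TPM with a ratio of -0.01 (-0.51 to 0.49), and Barhl1, a Bar-class homeobox gene, had 25 and 24 counts with a ratio of 0.18 (-0.69 to 1.04).

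The members were then set beside the other hypothalamic factors. Of 14 such genes, all with enough counts, 2 were called lower and 0 higher, and their median ratio was -0.36 (0.19 with spike-in scaling, with 2 lower and 1 higher). The 2 are Fezf1 and Nr5a1, factors of the ventromedial nucleus. Fezf1 had 546 and 127 counts, or 13.2 and 3.65 TPM, and a ratio of -1.86 (-2.16 to -1.59). Nr5a1 had 37 and 0 counts, 10.5-fold lower against the floor of 3 counts, with an upper end of the log2 interval of -3.02. The peptide Pmch of the lateral hypothalamus had 70 and 0 counts, 19.8-fold lower against that floor, with an upper end of -3.97. Both folds leave out the counting error in replicate 1, which the upper ends include, so smaller folds are possible. Other factors of the list had ratios nearer to 0, with Isl1, which striatal neurons also express, at -0.44 (-0.55 to -0.34), Nhlh2 at 0.06 (-0.09 to 0.21) and Tbx3 at -0.03 (-0.42 to 0.36). Lhx5 had -0.85 (-1.16 to -0.55) and Sox14 -0.91 (-1.67 to -0.22).

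**Figure D3:**
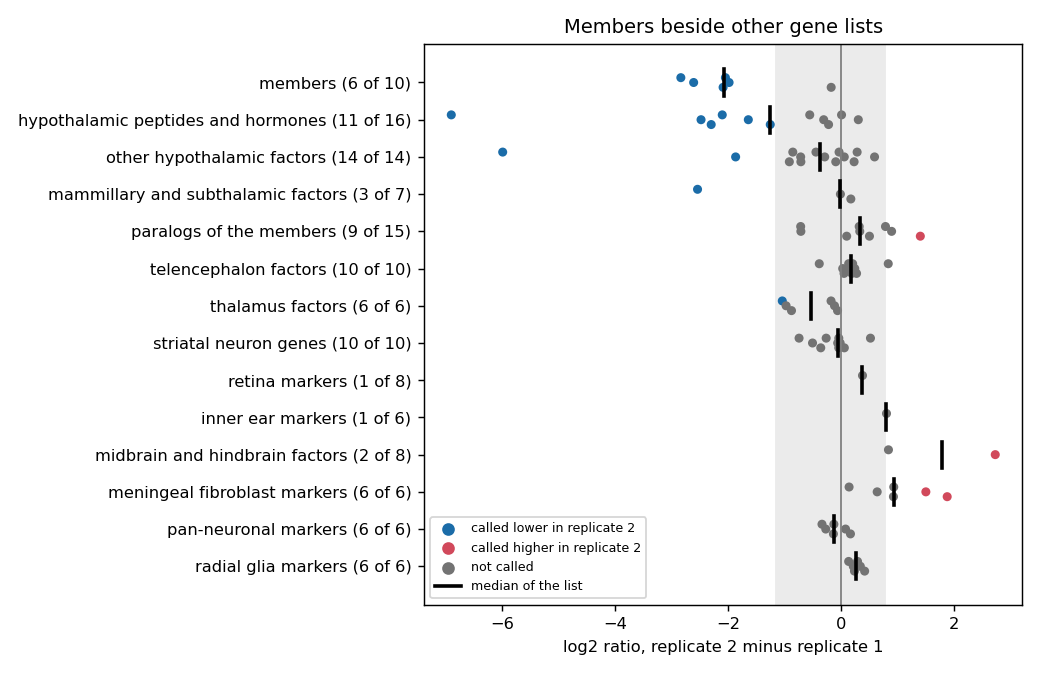
Log2 ratios between the pools (x axis) of single genes with a mean count of at least 10, by gene list; the number after each name is how many of the listed genes are shown, black bars are list medians, and the grey band is the central 95% of all genes with that minimum. Blue points were called lower and red points higher in replicate 2; the points left of -5 are Pmch and Nr5a1, which had 0 counts in replicate 2, so that their position depends on the added count. The members' median lies at -2.07 and that of telencephalon factors at 0.18.

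The lists of other territories and cell types stood as follows beside the members. Telencephalon factors had a median ratio of 0.18 with 0 of 10 called. Pan-neuronal markers had -0.13 and radial glia markers 0.27, with 0 of 6 called in each. Factors of the thalamus, the part of the diencephalon above the hypothalamus, were at a median of -0.52. With spike-in scaling it was 0.03, where the median of all genes was 0.55. All 6 had a ratio below 0 with TMM scaling, and they summed to 94.33 and 55.95 TPM. Among them Tcf7l2 alone was called lower, at -1.04, 1 of 6, and with spike-in scaling (-0.48) this call was lost. Gbx2, at -0.97 (-1.335 to -0.62), and Lhx9, at -0.87 (-1.04 to -0.71), did not reach 2-fold. Meningeal fibroblast markers summed to 122 and 322 TPM, with 2 of 6, Col1a1 and Col1a2, called higher. Midbrain and hindbrain factors summed to 69 and 196 counts over 8 genes (1.73, 1.34 to 2.16), and Hoxa2 and Hoxb4 had 0 in both libraries. Without Gata3 the sums were 53 and 103, of which Gata2 alone gave 49 and 75. Spike-in scaling brought the genes called higher to 1 of 10 telencephalon factors and 5 of 6 meningeal markers. The part of these cell types and regions in the members' ratios was not tested.

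The genes nearest in ratio to the called members included hypothalamic peptides, other members, and genes with no place on the lists. Likeness was the absolute difference of log2 ratios over the 2 libraries, among 12879 protein-coding genes with a mean count of at least 50. Among the 3 nearest to Sim1 were Crh and Avp, which differed from it by 0.36 and 0.54. Among those of Six6 were Crh and Sim1, by 0.13 and 0.23. The 3 nearest to Otp were Slc6a7, a proline transporter of neurons, Gal, a neuropeptide, and Snhg11, a small nucleolar RNA host gene listed as protein coding, all within 0.057. Hmx2 had Gal, Otp and Slc6a7, and Foxb1 had Snhg11, Slc6a7 and the histocompatibility gene H2-Q7. Snhg11 is abundant, at 177 and 41.1 TPM, so a ratio like that of Foxb1 was also found outside low counts. In the whole set of 12879 genes, 6 had a ratio at or below -2, among them Sim1, Otp, Crh, Avp and Gal.

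**Figure D4:**
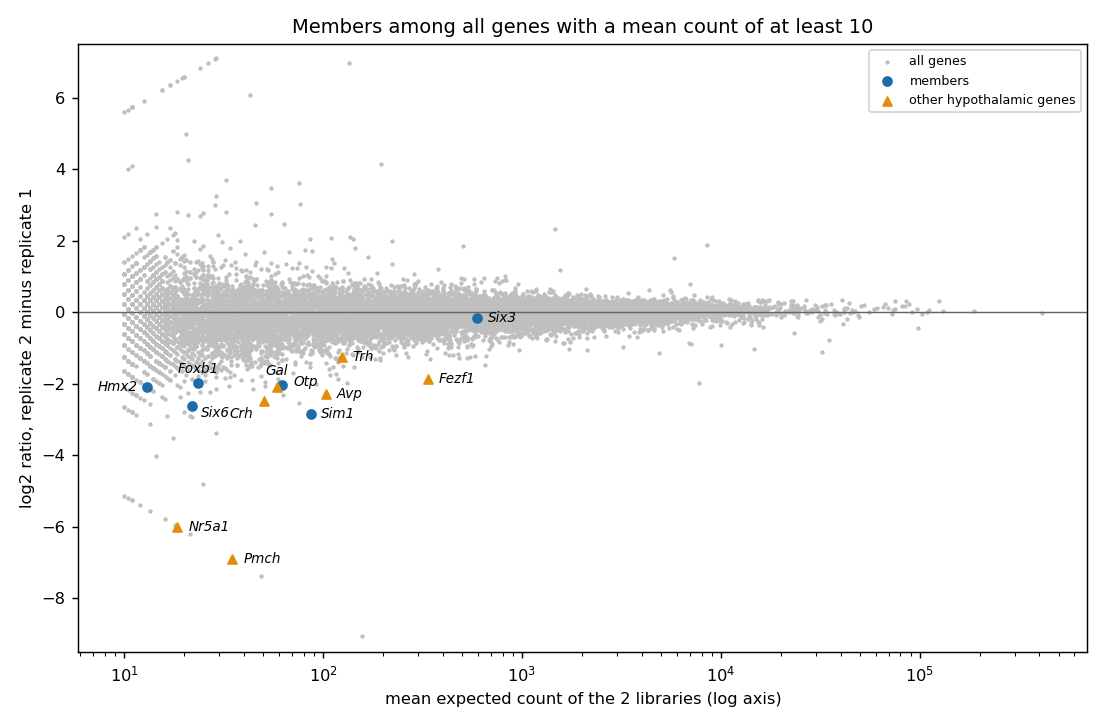
Log2 ratio between the pools (y axis) against the mean expected count (log x axis) for all 17177 genes with a mean count of at least 10. Blue circles are the 6 members in this range and orange triangles other hypothalamic genes; Six3 sits in the cloud, at -0.17 (0.38 under spike-in scaling) and the other 5 members below it, between -1.98 and -2.84.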

How the data were processed

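The members and gene lists were chosen with earlier results of these data known. Per the notes deposited with each library, the authors used the mm10 assembly with GENCODE M4. Each library has its own tables, with aligner and quantifier not given in the sources used here. Per the file headers, the authors deposited expected counts (estimated reads per gene and transcript, not normalized), TPM and FPKM values, and each transcript's percent of its gene, per the file headers. The deposited TPM are scaled over all features, and spike-ins took 5.93% of them in replicate 1 and 4.10% in replicate 2. Names and coordinates came from GENCODE M21 (GRCm38, the same assembly), which matched 42462 of 43346 genes; promoter sequences are RefSeq's, for 8 of the 10 members, without Rax and Foxb1.

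Expected counts were rounded to whole numbers and scaled with edgeR 4.0.16 (TMM) in R 4.3.3; DESeq2 1.42.0 gave size factors for an alternative. Python 3.11.15, numpy 2.4.6, pandas 2.3.3, scipy 1.17.1 and matplotlib 3.10.9 did the rest. Differences between 2 ratios are conditional exact odds ratios. The call rule was tested on simulated data. Named genes were all members, the leading and most different genes of each list, paralogs, partners and the 3 nearest ratios; some genes under this rule are not reported here, and neighbours Six2 and Six4 and several marker genes were named after their values were seen, as were some peptides. Alternatives covered scaling, counts, minimums, fold, prior count, units and each replicate left out.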

Additional observations from a re-analysis of the deposited data

How the results depend on the processing

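The limit on the members is depth: 4 of the 10 had a mean count under 10, and the 2 pools give no error on a difference beyond counting. The 5 called members remained called under DESeq2 size factors, total counts, spike-in scaling, posterior mean counts and a prior count of 2. Spike-in scaling moves every log2 ratio by 0.55, brings all genes called to 1187 and those lower in replicate 2 to 121, ends the lower calls of Trh, Cartpt and Tcf7l2 (chosen after seeing the data), and turns Six3 from -0.17 to 0.38. With a minimum mean count of 50, Sim1, Otp and Six3 were tested. Of these, 2 members (Sim1 and Otp) were called lower, beside 191 genes called, 140 of them lower. At a minimum of 20 the genes called were 471, with 336 lower. A fold of 1.5 gave 1626 and 1119, and protein-coding genes alone, chosen after seeing the data, 376 and 211, all against 743 and 506. At 0.5 TPM in both libraries 2 members were detected and at 0.1 TPM 7, and with 1 replicate left out 1 to 3. A single library moves the levels several-fold: Sim1 is at 0.16 or 1.14 TPM, Six6 at 0.08 or 0.53 and Rax at 0 or 0.34. Six3 is at 8.11 in FPKM, a unit with another total. No paired analysis was possible because there is 1 group.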

Other observations

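Not all hypothalamic peptides were lower in replicate 2. Tac2, the precursor of neurokinin B, was estimated at 56 and 59 counts (log2 ratio 0.31, -0.24 to 0.86), and Gnrh1, whose neurons migrate in from the nose, had 38 and 26 counts with -0.30 (-1.09 to 0.44). Pomc, the melanocortin precursor of arcuate neurons and pituitary cells, had 59 and 34 counts with -0.55 (-1.21 to 0.07). None of these 3 was called. Cartpt, with 27 and 7 counts, was called lower at -1.64 (-3.16 to -0.48), a call lost with spike-in scaling. Hcrt, the orexin precursor of the lateral hypothalamus, had 7 and 0 counts, with an upper end of the log2 interval of -0.29.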
